A study of Mus musculus with 6 samples.

Results

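Calcium enters the cardiac muscle cell through the L-type channel and leaves it mainly through the sodium-calcium exchanger, with a smaller share pumped out by plasma membrane calcium ATPases. The messenger RNAs of 7 genes of this system were followed in whole mouse hearts: the channel subunits Cacna1c, Cacna1d, Cacnb2 and Cacna2d1, the exchanger Slc8a1 and the pumps Atp2b1 and Atp2b4. All probe sets whose platform symbol was one of these names were taken, which gave 19 probe sets of 45037 tested, and 7 of the 18193 genes named on the arrays. A probe set is a group of short array probes that is read out as 1 value, and a gene can have several.

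Hearts were taken at postnatal day 10 from 3 mice of wild type and from 3 that lack miR-1-2, with 1 array for each heart. miR-1-2 encodes miR-1, a small RNA of striated muscle that lowers the messenger RNAs it pairs with, and the comparison asked how heart transcripts differ when this gene is lost. The values are log2 expression values from RMA, on which equal steps are equal folds. The sources used here do not give the knockout allele, the strain or the litters. The labels name heart tissue with no chamber, so any chamber and cell type may have contributed RNA.

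The L-type channel opens when the cell membrane is depolarised, and the calcium that enters sets off a larger release from the sarcoplasmic reticulum. Its pore is formed by an alpha-1 subunit, a cytoplasmic beta subunit brings the pore to the membrane and tunes its gating, and an extracellular alpha-2-delta subunit supports its surface level. In the beat that follows, the exchanger carries calcium out in return for sodium. In mouse heart before weaning the sarcoplasmic reticulum is still maturing, and the exchanger and the channel carry a larger part of the calcium flux than later.

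None of the 19 probe sets passed the test between genotypes (limma, adjusted over all probe sets, adjusted p = 1.00 for each), and 0.00666% of all probe sets did. None of the 19 passed in a blocked fit by replicate number either (0.0444% of all probe sets and 0.0715% of all genes did). At an unadjusted p of 0.05, 3 of the 19 stood out, 15.8%, against 3.94% of all probe sets. The values of the groups did not overlap in 5 of the 19, 26.3%, against 8.7% of all probe sets. Of these, 4 were higher in knockout (4.05% of all probe sets) and 1 was lower (4.65%). Regardless of overlap 12 of the 19 were higher in knockout, where 47.1% of all probe sets and 50.2% of all genes were. The median difference of the 19 was 0.044, against -0.0064 over all probe sets. In these small shares the probe sets of 1 gene are not independent, and the genes were chosen with earlier results of these data known.

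The arrays differed in ways that bear on these values. By Xist, which female cells transcribe from the silenced X, the sexes were not balanced: 4 arrays (all of wild type, and knockout replicate 2) read 11.91 to 12.19, while knockout replicates 1 and 3 read 7.55 and 7.57. The first replicate of each genotype stood out by the mean of 5 brown fat markers, 7.65 for the wild-type array and 8.03 for the knockout array (6.05 to 6.35 for the remaining arrays). Ucp1, Cidea and Adipoq were higher in both than elsewhere. Elovl3 and Dio2 of wild-type replicate 1 (5.89 and 6.43) lay within the range of the remaining arrays. The mean of 7 thymus and lymphoid markers was 6.18 and 5.86 in the first replicates and 5.57 to 5.73 elsewhere. All 10 cardiomyocyte markers were far above the array medians, and their list mean was 13.07 and 13.11 in the first replicates and 13.13 to 13.22 elsewhere. The endothelial list was also lower in the first replicates (8.95 and 8.97, against 9.14 to 9.25), and the neuronal list was higher there (5.62 and 5.70, against 5.46 to 5.51). Smooth muscle and fibroblast list means ran from 8.49 to 8.84 and from 11.40 to 11.65 over all arrays. All 6 myeloid markers were lower in knockout, with a median difference of -0.24 and list means of 7.47 to 7.65 in knockout and 7.71 to 7.98 in wild type, which did not overlap. No single myeloid marker passed, and the part of this difference in the member values was not tested. In bulk tissue, fewer cells of a type and less RNA per cell cannot be told apart.

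Cacna1c encodes the main pore subunit of the L-type channel of ventricle. It was higher in knockout by both of its probe sets, by 1.24-fold and 1.33-fold, and neither passed. On probe set 1421297_a_at, the brighter, wild-type replicates 1 to 3 stood at 8.71, 9.11 and 9.04 and knockout replicates 1 to 3 at 8.93, 9.38 and 9.50. The groups overlapped through knockout replicate 1, which lay below a pair of wild-type arrays, and each first replicate was the lowest of its group. The difference was 0.31 ± 0.16 (SE), with a 95% interval from -0.04 to 0.66 before adjustment.

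On the other Cacna1c probe set, 1435730_at, the wild-type values were 8.06, 8.35 and 8.35 and the knockout values 8.35, 8.77 and 8.87. The groups touched without overlapping, and the first replicates were again the lowest. The difference was 0.41 ± 0.14 (SE), the largest of the 19 probe sets, with an interval from 0.10 to 0.73 and an unadjusted p of 0.0163. A difference at least this large in either direction was found in 0.406% of all probe sets. With both first replicates left out the probe sets differed by 0.36 and 0.47. Knockout replicate 2, with high Xist, and knockout replicate 3, with low Xist, were above all wild-type arrays on both probe sets. Knockout replicate 1, also with low Xist, was below a pair of wild-type arrays on 1421297_a_at and narrowly above all on 1435730_at. With the Xist level as a covariate the differences were 0.43 and 0.52, and neither passed (limma, adjusted p = 0.674 for each). Every wild-type array had high Xist, so sex and genotype could not be fully told apart. The low values of the first replicates moved with high list means of brown fat, lymphoid and neuronal markers and low list means of endothelial and cardiomyocyte markers there. Not every marker followed its list. Cardiomyocyte Mybpc3 was low in the first replicates (12.62 and 12.70, against 12.97 to 13.08). Tnni3 there lay within the range of the other arrays (13.61 and 13.60, against 13.58 to 13.63). Lymphoid Rag1 was high in the first replicates (5.90 and 4.52, against 3.68 to 3.96). Cd8a there lay within the range of the other arrays (6.81 and 6.73, against 6.69 to 6.94). Endothelial Emcn was highest in the first replicates (9.35 and 9.34, against 9.09 to 9.23), and cardiomyocyte Actc1 was there the highest of each group. The part of these lists in the Cacna1c values was not tested.

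Stretches of regulatory DNA are shown for Cacna1c, Cacnb2, Slc8a1 and Atp2b4, each higher in knockout by every probe set it had. None of these differences passed, so their shared direction does not define a regulated group. Each is the 250 bases before the outermost annotated start in RefSeq, build GRCm38.p6, written 5′ to 3′ along the gene. Capitals mark matches on either strand to GATAA, the core bound by GATA factors, or to CATTCC, the M-CAT element bound by TEAD factors.

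Cacna1c (chr6:119196410-119196659, minus strand): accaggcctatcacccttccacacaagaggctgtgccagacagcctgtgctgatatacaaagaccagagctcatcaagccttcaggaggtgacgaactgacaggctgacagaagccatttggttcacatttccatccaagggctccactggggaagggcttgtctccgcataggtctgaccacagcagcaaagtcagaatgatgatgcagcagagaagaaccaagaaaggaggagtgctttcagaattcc
Cacnb2 (chr2:14604056-14604305, plus strand): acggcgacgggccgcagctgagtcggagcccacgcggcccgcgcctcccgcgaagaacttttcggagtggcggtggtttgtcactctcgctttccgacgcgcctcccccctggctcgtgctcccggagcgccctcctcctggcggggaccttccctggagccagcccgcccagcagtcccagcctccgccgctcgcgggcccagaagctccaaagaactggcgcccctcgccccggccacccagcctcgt
Slc8a1 (chr17:81738388-81738637, minus strand): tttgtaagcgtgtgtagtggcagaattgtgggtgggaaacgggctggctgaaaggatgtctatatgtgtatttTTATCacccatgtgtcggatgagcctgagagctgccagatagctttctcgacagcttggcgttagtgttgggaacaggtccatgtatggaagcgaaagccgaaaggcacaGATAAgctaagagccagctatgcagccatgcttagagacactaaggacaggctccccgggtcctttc
Atp2b4 (chr1:133753748-133753997, minus strand): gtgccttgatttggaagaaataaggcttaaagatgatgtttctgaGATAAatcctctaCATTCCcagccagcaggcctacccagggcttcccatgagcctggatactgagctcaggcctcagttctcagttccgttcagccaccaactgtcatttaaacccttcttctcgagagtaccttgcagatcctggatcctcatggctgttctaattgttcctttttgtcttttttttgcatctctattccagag

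The Slc8a1 stretch held GATAA 2 times, beginning 177 and 67 bases before the start, the farther one on the opposite strand. The Atp2b4 stretch held GATAA and CATTCC 1 time each, beginning 205 and 192 bases before its start. The Cacna1c and Cacnb2 stretches held neither pattern. GATAA was not limited to genes higher in knockout: the like stretch of Cacna1d, lower by both probe sets, held it 157 bases before the start. The like stretches of Cacna2d1 and Atp2b1 held neither pattern. A link between these matches and the differences was not tested. Among 32851 RefSeq stretches of the same length, 22.6% held GATAA and 12.6% CATTCC. None of the matches overlapped. RefSeq gives Cacna1c 3 starts, and Cacnb2, Cacna1d and Atp2b1 2 each, and the arrays do not tell which was used. A match in letters is not a bound site.

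Cacna1d encodes the pore subunit found in atrium and in the pacemaker of the sinoatrial node. Its probe sets were dim, at means of 5.29 and 5.27 over the 6 arrays, where the median of all probe sets was 6.06, and both were lower in knockout by less than their intervals could resolve. On 1428051_a_at the wild-type values were 5.33, 5.32 and 5.40 and the knockout values 5.50, 5.22 and 4.96. The groups overlapped, and knockout replicate 3 was the lowest of all arrays, for a difference of -0.12 ± 0.13 (SE). All 6 atrial markers were lower in knockout (median difference -0.47, none passed). Their level was lowest in knockout replicate 3, with a list mean of 9.47 against 10.40 to 11.06 in the other arrays. Beyond that array the orders differed. Knockout replicate 1, the highest for 1428051_a_at, had an atrial list mean of 10.54, and knockout replicate 2, the second lowest, had 10.89. The part of the atrial markers in the Cacna1d value was not tested. Without knockout replicate 3 this Cacna1d difference was 0.012. The other Cacna1d probe set, 1427974_s_at, lay between 5.22 and 5.32 in all 6 arrays, and its difference of -0.0079 changed sign with the scaling of the arrays.

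Cacnb2 encodes the main beta subunit of the cardiac channel. Both of its probe sets were higher in knockout and overlapped between groups. On 1456401_at the wild-type values were 8.64, 8.89 and 8.81 and the knockout values 8.64, 9.15 and 9.10. The first replicates of the 2 genotypes were level, and knockout replicates 2 and 3 stood above every wild-type array. The difference was 0.18 ± 0.14 (SE), 1.14-fold, with an interval from -0.12 to 0.49.

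On 1452476_at, the dimmer Cacnb2 probe set, wild type was at 7.28, 7.46 and 7.46 and knockout at 7.22, 7.94 and 7.74. Here knockout replicate 1 was the lowest of the 6 arrays and the other knockout arrays the highest. The difference of 0.23 ± 0.16 (SE), 1.17-fold, was 0.44 without knockout replicate 1 and 0.076 without knockout replicate 2. With the Xist level as a covariate it was 0.53 and still did not pass (adjusted p = 0.674).

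**Figure D1:**
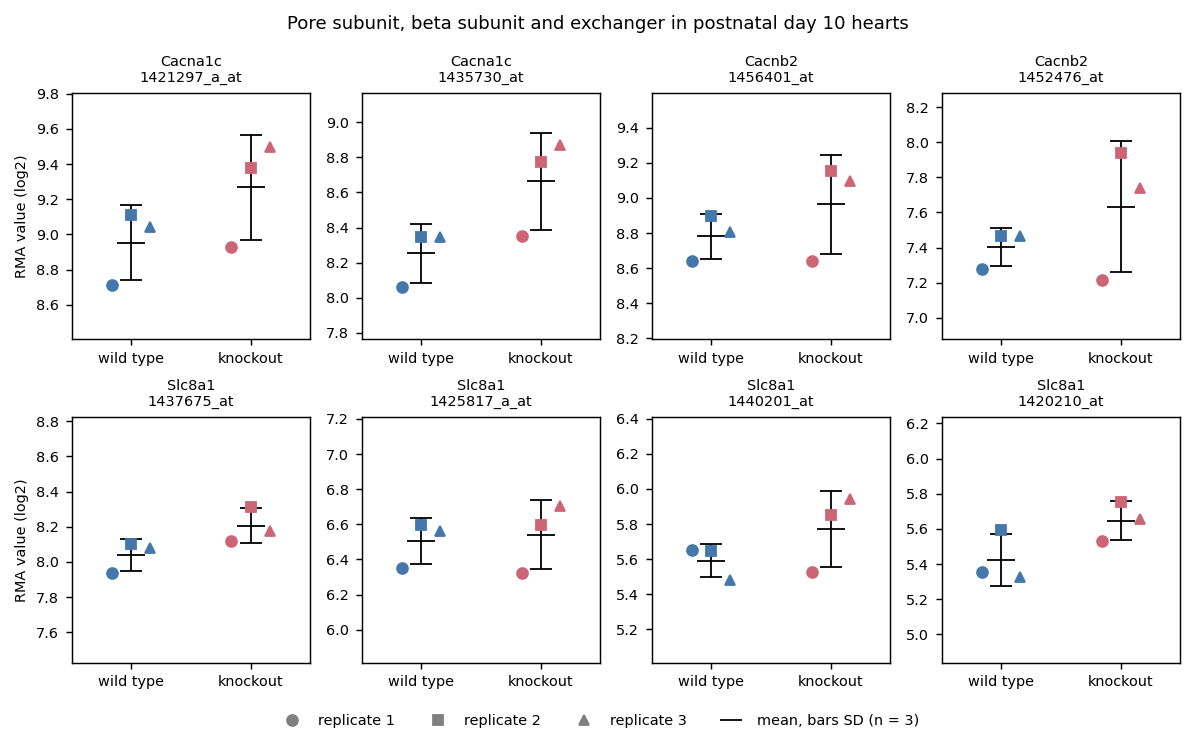
Values of the 8 probe sets of Cacna1c, Cacnb2 and Slc8a1, in log2 units on axes of equal span, with 1 symbol for each array, its shape giving the replicate number, and the group mean with SD (n = 3). The circles of replicate 1 sit low in both genotypes for Cacna1c and Cacnb2, and knockout replicates 2 and 3 lie above the wild-type arrays there.

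Cacna2d1 encodes the alpha-2-delta subunit, the part of the channel outside the cell. Its 5 probe sets did not move together: 2 were higher and 3 lower in knockout. The brightest, 1433643_at, was at 9.40, 9.19 and 9.25 in wild type and 9.19, 9.27 and 9.26 in knockout. The difference was -0.041 ± 0.080 (SE), with an interval from -0.22 to 0.14, so a change beyond 1.16-fold lower or 1.10-fold higher lies outside it. Without wild-type replicate 1, the highest array, its sign turned (0.017).

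The next brightest Cacna2d1 probe set, 1449999_a_at, was at 7.80, 7.37 and 7.62 in wild type and 7.73, 7.30 and 7.07 in knockout. It was highest in the first replicates of both genotypes, the reverse of Cacna1c, and differed by -0.23 ± 0.17 (SE). Without knockout replicate 3 that difference was -0.084. The other 3 lay near or below a value of 5, where background can make up much of the signal, though its share was not measured here. One of these, 1440397_at, did not overlap between groups, at 3.70 to 3.79 in wild type and 3.88 to 3.96 in knockout, a difference of 0.17 with an unadjusted p of 0.039. Another, 1425861_x_at, did not overlap in the opposite direction, at 3.51 to 3.83 and 3.40 to 3.50. The suffix _x_at marks probes that may also bind other transcripts.

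Slc8a1 encodes the cardiac sodium-calcium exchanger, the main route of calcium out of the muscle cell. All 4 of its probe sets were higher in knockout, between 1.03-fold and 1.17-fold, and none passed. On the brightest, 1437675_at, the wild-type values were 7.94, 8.10 and 8.08 and the knockout values 8.12, 8.31 and 8.18. The groups did not overlap, with a gap of less than the spread within either, and the difference was 0.16 ± 0.08 (SE), with an interval from -0.02 to 0.35. Knockout replicate 1 was here above all wild-type arrays, as it narrowly was on 1435730_at of Cacna1c. It was lowest or second lowest of the 6 arrays on 1421297_a_at of Cacna1c and both Cacnb2 probe sets. The same held on 1425817_a_at and 1440201_at of Slc8a1.

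Probe set 1420210_at of Slc8a1 stood at 5.35, 5.59 and 5.32 in wild type and 5.53, 5.75 and 5.66 in knockout. It differed by 0.22 ± 0.10 (SE) with an unadjusted p of 0.0452 (limma), and the groups overlapped through wild-type replicate 2. This probe set was dim, at a mean of 5.53 where the median of all probe sets was 6.06. Probe set 1440201_at differed by 0.18 ± 0.11 (SE), with knockout replicate 1 at 5.53 and knockout replicates 2 and 3 at 5.85 and 5.94. On 1425817_a_at the groups covered nearly the same range, 6.35 to 6.59 and 6.32 to 6.70. Its difference of 0.037 ± 0.112 (SE) turned to -0.038 without wild-type replicate 1.

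Atp2b1 and Atp2b4 encode plasma membrane calcium pumps, which bind calmodulin and clear calcium at low rates. Atp2b1, the widely expressed form, had 3 probe sets with differences from -0.15 to 0.025. The brightest, 1428937_at, was at 8.42, 8.50 and 8.45 in wild type and 8.16, 8.51 and 8.41 in knockout. Knockout replicate 1 alone lay below the wild-type arrays by more than their spread, and without it the difference of -0.10 ± 0.10 (SE) was 3.3e-04. The second, 1452969_at, was among the steadiest of the 19, between 7.99 and 8.10 in all arrays, with an interval from -0.13 to 0.18. The third, 1428936_at, was lower in knockout by 0.15 ± 0.14 (SE), with knockout replicate 1 at 6.93 and knockout replicate 3 at 6.29.

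Atp2b4 was read by 1 probe set, 1445701_at, near the dim end of the scale. The wild-type values were 5.52, 5.51 and 5.42 and the knockout values 5.58, 5.60 and 5.54. The groups lay apart by a narrow margin, and the difference was 0.090 ± 0.070 (SE), 1.06-fold, with an interval from -0.07 to 0.25.

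**Figure D2:**
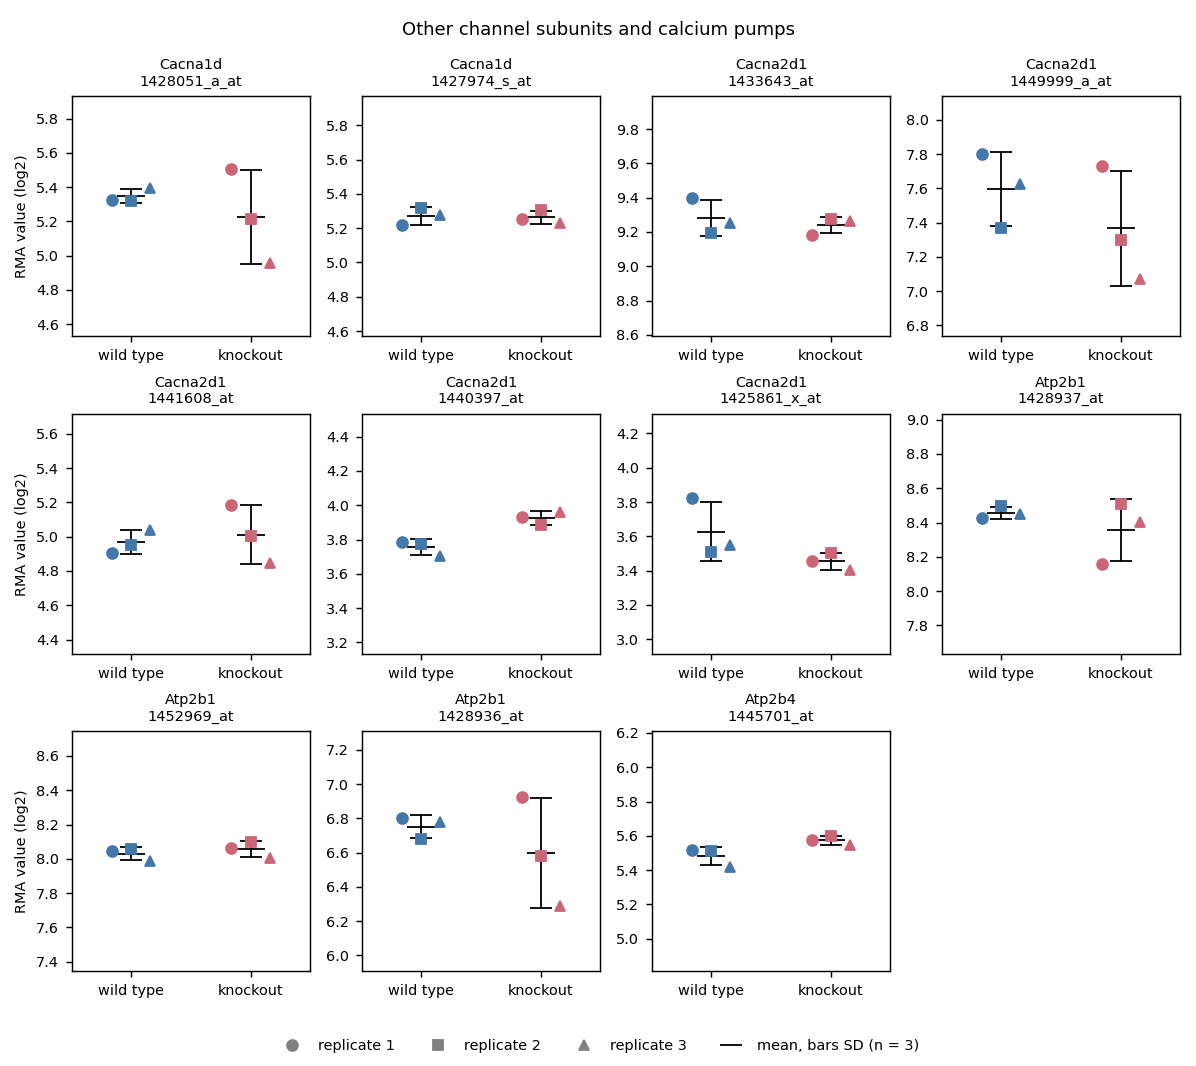
Values of the 11 probe sets of Cacna1d, Cacna2d1, Atp2b1 and Atp2b4, drawn as for the other genes. Groups overlap in all panels but 1440397_at and 1425861_x_at of Cacna2d1 and that of Atp2b4, and knockout replicate 3 is the lowest array for 1428051_a_at of Cacna1d, 1449999_a_at of Cacna2d1 and 1428936_at of Atp2b1.

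**Figure D3:**
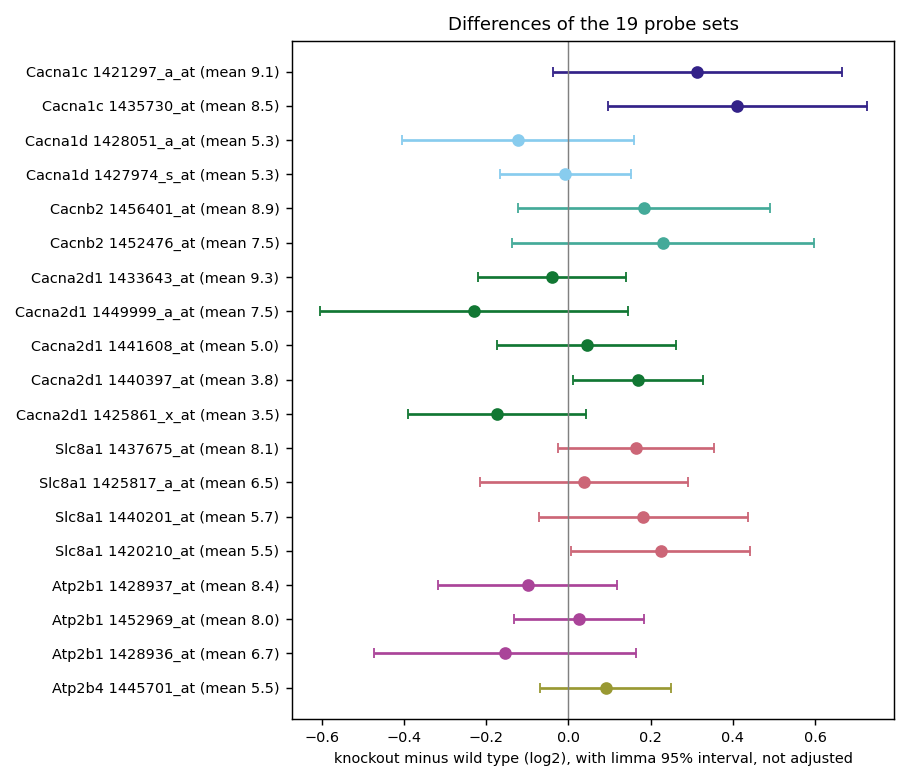
Difference between knockout and wild type on the log2 scale for each of the 19 probe sets, with its 95% interval from limma before adjustment, and in brackets its mean over the 6 arrays. The interval lies above 0 for 1435730_at of Cacna1c, 1440397_at of Cacna2d1 and 1420210_at of Slc8a1, and no probe set passed after adjustment.

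Across the arrays Cacna1c and Cacnb2 ran in a similar but not identical order, highest in knockout replicate 3 and in knockout replicate 2 respectively. For all 4 of their probe sets the first replicates took a place among the lowest or second lowest, except knockout replicate 1 on 1435730_at, and knockout replicates 2 and 3 were the highest. The first principal component of all probe sets, with 44.7% of the variance, placed the arrays in a like order: knockout replicate 1 at -27.1, wild-type replicate 1 at -18.8, wild-type replicates 3 and 2 at 2.22 and 2.86, and knockout replicates 3 and 2 at 16.4 and 24.5. Its part in the Cacna1c and Cacnb2 differences was not tested. The range over the 6 arrays was 0.79 and 0.81 for the Cacna1c probe sets, against a median of 0.29 over all genes.

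**Figure D4:**
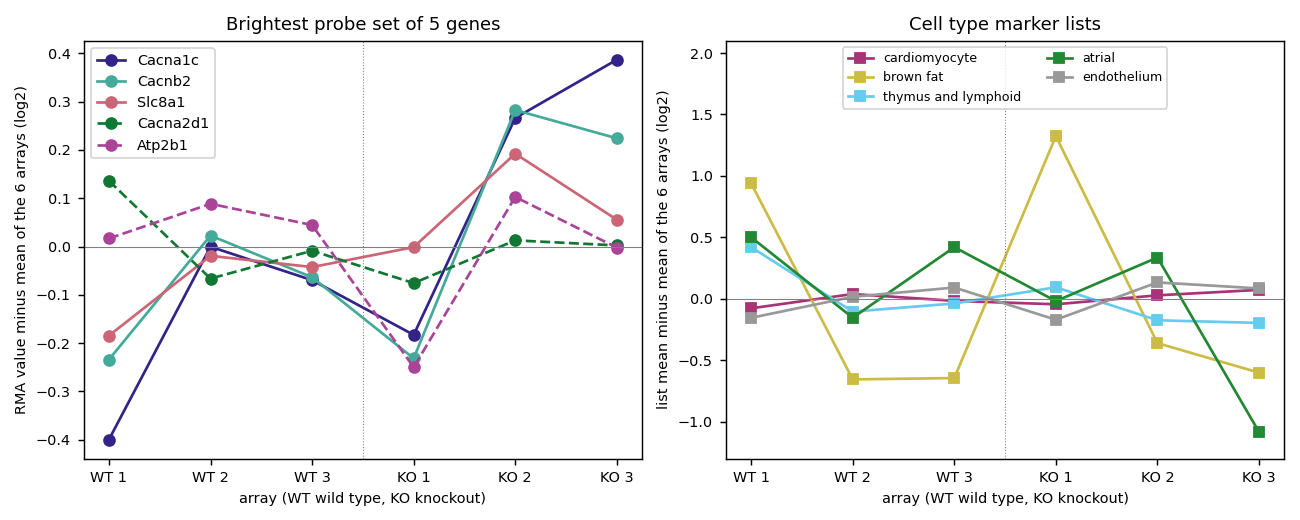
Left, the brightest probe set of 5 genes in each array as the deviation from its mean over the 6 arrays (log2). Right, the same for the mean of 5 marker lists. Lines only join the points of a gene or list. Cacna1c and Cacnb2 are low in both first replicates, where the brown fat list is at 7.65 and 8.03, and the atrial list is lowest in knockout replicate 3, at 9.47.

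The genes whose log2 values ran most like those of each member over the 6 arrays are given as a description, since many genes reach high values over so few arrays. For Cacna1c they were Kcng2 (Pearson r = 0.998) and Clasp1 (0.996), and 259 of 9440 genes compared had r above 0.95. For Cacnb2 they were Vps4b (0.999) and Nagk (0.999), with 446 genes above 0.95. For Slc8a1 they were Pdk3 (0.991) and Hltf (0.989), with 75 above 0.95. For Atp2b1, Zfand4 (0.997) and Nfatc2ip (0.995) came first, and for Cacna1d, Amelx (0.995) and Asphd1 (0.993). Cacna2d1 had 3 genes above 0.95, led by Ccpg1os (0.961) and Lratd2 (0.959), and Atp2b4 had 9, led by St3gal1 (0.972) and Uck1 (0.962).

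The rest of the pathway was read with 1 probe set for each gene. No gene of the arrays passed the test in this fit (0% of 18193, limma, with 746 genes, 4.1%, at an unadjusted p under 0.05), and so none of these lists held a call. Of 19 measured regulators of the L-type channel 13 were higher and 6 lower in knockout, with a median difference of 0.045, against 4.8e-04 over all genes. The groups did not overlap in 4 of the 19, against 8.86% of all genes.

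Adcy5, an adenylyl cyclase that makes the cyclic AMP acting on the channel, had the smallest p of these regulators. It stood at 8.49, 8.80 and 8.79 in wild type and 8.86, 9.18 and 9.17 in knockout, a difference of 0.37 ± 0.12 (SE). The groups did not overlap, and both first replicates were the lowest of their group, as for Cacna1c. The mean of all Adcy5 probe sets differed by 0.053. Cabp1, a calcium-binding protein related to calmodulin, differed by 0.18, but lay at 4.47 to 4.79, where background can make up much of the signal. Akap5, an anchor of protein kinase A, differed by 0.12, and Prkar2a, a regulatory subunit of that kinase, by -0.12.

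Of 10 genes that shape the t-tubules and the dyad, where the channel faces the sarcoplasmic reticulum, 4 were higher and 6 lower (median -0.017). Jph2, which ties both membranes together, stood at 10.35, 10.57 and 10.58 in wild type and 10.50, 10.78 and 10.92 in knockout, a difference of 0.23 ± 0.12 (SE). Its order of arrays was like that of Cacna1c, with overlap through knockout replicate 1. Cav3, the muscle caveolin, differed by 0.15, Tcap by -0.26 and Mtm1, a lipid phosphatase, by -0.31. With the mean of all probe sets of a gene Jph2 differed by 0.10 and Mtm1 by -0.090, and without wild-type replicate 1 Tcap differed by -0.11.

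Of 15 other voltage-gated calcium channel subunits 4 were higher and 11 lower (median -0.047). Cacna1s, the pore of skeletal muscle, was near the floor of the scale at 3.61 to 4.05, and the 8 skeletal muscle markers had a list mean of 5.22 to 5.29. Cacnb1 differed by 0.098, Cacna2d3 by 0.21 and Cacng3 by -0.19, all with overlapping groups. The Cacna2d3 values were dim as well, at 4.35 to 4.77. Of 13 other exchangers, pumps and partners 10 were higher and 3 lower (median 0.029). The related exchangers Slc8a2 and Slc8a3 were dim, at 5.22 to 5.60 and 5.33 to 5.67, and differed by -0.094 and 0.10. Atp2b2 differed by 0.073 and Slc24a4 by -0.066.

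On the sodium side of the exchanger 5 genes were measured and all 5 were higher in knockout, by a median of 0.036. Atp1b1, the beta subunit of the sodium pump in heart, was at 11.09 to 11.28 in wild type and 11.09 to 11.35 in knockout. Atp1b2 differed by 0.033, Atp1b3 by 0.036 and Fxyd5 by 0.081, with overlapping groups throughout. A further quantile normalization turned the signs of Atp1b2 and Atp1b3, at -0.0017 and -2.3e-04.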

How the data were processed

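Total RNA of 6 hearts was labelled with biotin and hybridised to Affymetrix arrays. Per the submitters' processing notes the software was GCOS 1.4. RMA, run by the authors in Bioconductor's affy (per the series' design text), gave the deposited log2 values. RMA brings the probe values of all arrays to 1 distribution before they are joined into probe sets. That hides a change shared by most genes, and RMA also compresses differences near the floor. The medians of the arrays over probe sets still ran from 6.03 to 6.11. The values lay between 2.64 and 14.6. Arrays carry no read depth, and their number limits the precision.

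After 64 control probe sets were left out, 45037 were tested. Platform symbols were updated by gene identifier through RefSeq (GRCm38.p6). A gene in the lists was read by its brightest probe set naming that gene alone (18193 genes). The test was limma 3.58.1 (R 4.3.3), with Benjamini-Hochberg adjustment over all probe sets or genes and a threshold of 0.05. The fit was tested on simulated data with noise drawn independently for each array and probe set. That does not cover differences between arrays shared by many probe sets, as seen here. Promoter letters came from RefSeq, and the 7 members matched. The part of the transcript read by each probe set was not analysed here.

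The members and lists were chosen with earlier results of these data known. Named were every member probe set, the 4 smallest p of each list, and the 2 genes most like each member (SD of at least 0.1 over the arrays, clone and predicted names left out). Groups share replicate numbers in their titles. After group means were removed, arrays of like number correlated at 0.46, 0.15 and 0.087 over probe sets, so the numbers were not treated as pairs, while over genes the correlations were 0.54, 0.18 and 0.13. Nothing but the design's count of mice states that arrays are separate animals. Alternatives left out arrays, and changed block, filter, scaling, variance model, weights, sex covariate and probe set choice.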

Additional observations from a re-analysis of the deposited data

How the results depend on the processing

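No member probe set passed in any of the 18 alternatives, and the lowest adjusted p was 0.101, for 1435730_at of Cacna1c with array weights. Of the 19, 11 kept their sign throughout, among them both of Cacna1c (0.19 to 0.48 and 0.31 to 0.57), both of Cacnb2 (0.088 to 0.37 and 0.076 to 0.53) and 3 of Slc8a1. At an unadjusted p under 0.05 (limma) there were 11 of the 19 member probe sets without knockout replicate 1, where 6830 of all 45037 were. There were 0 without wild-type replicate 1 or knockout replicate 3, where 1037 and 1028 of all probe sets were. Leaving out the first replicates of both genotypes was chosen after seeing the data. The cause of the changes below was not tested.

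Over all probe sets 3 passed. With array weights it was 24, with trend and robust variance 6, and 0 with the Xist covariate, with a mean of at least 5 or without _x_at and _s_at probe sets (limma, 3211, 1275 and 1597 at an unadjusted p under 0.05). Leaving out 1 array gave 1 to 15. With the replicate number as a block 20 passed, and 55 in that fit without replicate 2. Over all genes 0 passed, 0 to 4 with 1 array left out, 1 without both first replicates, 3 with the mean of a gene's probe sets and 416 with array weights, among them Adcy5 (0.42) and Jph2 (0.36). With the block 13 genes passed, 11 without replicate 1 and 36 without replicate 2. The block changed no call of a member or a listed gene. Fits without knockout replicate 2, and blocked fits without replicate 2, set arrays of opposite Xist level against each other.

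With arrays left out, 1428051_a_at of Cacna1d ran from -0.27 to 0.012 and 1427974_s_at from -0.035 to 0.016. For Cacna2d1, 1433643_at ran from -0.084 to 0.045 and 1441608_at from -0.073 to 0.13. For 1425817_a_at of Slc8a1 the range was -0.044 to 0.15, for 1428937_at of Atp2b1 -0.18 to 3.3e-04, for 1428936_at of Atp2b1 -0.32 to 0.0012, and for Atp1b2 -0.0093 to 0.084. In the blocked fit without replicate 1, the signs of 1433643_at (0.045), 1441608_at (-0.073) and Atp1b2 (-0.0093) turned. Without replicate 2 those of Cacna1s (0.060) and Atp1b3 (-0.013) did. Without replicate 3 those of 1428051_a_at (0.037), 1427974_s_at (0.011), 1425817_a_at (-0.016), 1428936_at (0.013), Slc8a2 (2.4e-04) and Atp1b1 (-0.014) did. The Xist covariate turned 1427974_s_at (0.036), 1428937_at (0.047), Cacnb1 (-0.0060) and Fxyd5 (-0.011). Array weights turned 1441608_at (-0.076), 1452969_at (-0.0031) and Atp2b2 (-0.0085). A further quantile normalization turned 1427974_s_at (0.016), Atp1b2 (-0.0017) and Atp1b3 (-2.3e-04), and median centring 1427974_s_at (0.013). The mean of all probe sets turned Slc8a2 (0.082) and Atp1b2 (-0.031).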

Other observations

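Probe sets of the same gene took different courses over the arrays in Cacna2d1 and Atp2b1. In Cacna2d1, 1449999_a_at was lowest in knockout replicate 3 (7.07) and highest in the first replicates (7.80 and 7.73), while the brighter 1433643_at was lowest in knockout replicate 1 (9.19) and stood at 9.26 in knockout replicate 3. In Atp2b1, 1428936_at was highest in knockout replicate 1 (6.93) and lowest in knockout replicate 3 (6.29), while the brighter 1428937_at was lowest in knockout replicate 1 (8.16). Which transcript ends these probe sets read was not analysed here.

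Atrial markers, all 6 lower in knockout (median difference -0.47) with none past the threshold, also varied between arrays within both genotypes. Sln, the sarcolipin of atrial muscle, was at 9.00 in knockout replicate 3 and between 10.78 and 11.63 in the other arrays, and Myl7, the atrial light chain, was at 11.69 against 12.41 to 13.37. The list mean in wild type ran from 10.40 to 11.06. The 4 measured markers of the conduction node had list means from 6.02 to 6.38.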
